A study of Mus musculus with 17 samples.

Results

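The glucocorticoid-responsive genes are 33 named genes whose transcription is known to follow corticosteroid hormones, or which carry the hormone signal, and 32 of them were measured among 18193 genes in the mouse hippocampus. They were taken by name: every array probe set annotated with exactly 1 gene symbol from the list counted, 75 probe sets in all, and each gene was read through the brightest of its probe sets by the mean of the 17 arrays. Nedd9, a scaffold protein gene of cell adhesion, had no such probe set and was not analysed here. The tested animals were 8 C57BL/6J males kept awake in the home cage for 5 h by gentle handling, in the light phase. They were set against 9 males of the same strain that stayed undisturbed in their cages over the same hours. All animals were individually housed, were handled daily on 6 days beforehand, and were 2 months old by the sample labels, or 2 to 4 months by the growth protocol. Each hippocampus went to its own Affymetrix mouse expression array, so the replicates are separate animals. No group was handled over those 5 h without losing sleep, so sleep loss and handling cannot be told apart, and no hormone level was analysed here.

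Glucocorticoids such as corticosterone, the main one in mice, enter cells and bind a pair of related receptors, the glucocorticoid receptor (Nr3c1) and the mineralocorticoid receptor (Nr3c2), both of which the hippocampus expresses at high levels. The bound receptor enters the nucleus and acts on genes with a palindromic response element, and many of its early targets limit inflammation, growth factor signalling, or the response itself. In rodents the secretion of the hormone rises with arousal and stress.

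Sleep-deprived hippocampi had higher levels of 6 members: Tsc22d3, Tiparp, Ddit4, Errfi1, Nfkbia and Cdkn1a. No member fell, and the other 26 did not pass the test (limma, Benjamini-Hochberg adjusted over all genes, threshold 0.05). That is 18.8% of the 32 members higher, where 1.25% of all genes were higher, 2.73% lower and 3.97% called in either direction in the same test. The members' median log2 difference, sleep-deprived minus undisturbed, was 0.13, beside 0.0016 for all genes, and 25 of the 32 differences were positive. At an unadjusted p under 0.05 there were 15 members, or 46.9%, and 18.6% of all genes. The members were chosen with earlier results of these data known, so these contrasts with all genes are no independent support. No member had groups of animals that did not overlap, whereas 0.731% of all genes had such groups (0.176% higher, 0.555% lower). Without sleep-deprived replicate 7 the members called higher dropped to 3, and with an exact rank-sum test also to 3. In a whole-tissue sample, fewer cells of a type and less RNA per cell cannot be told apart, and precision is limited by how many arrays there were.

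The arrays stood close together, with correlations between 0.993 and 0.998 and array medians between 6.14 and 6.22 on the log2 scale, and 2 features of the tissue or the RNA varied between animals. The mean of 8 choroid plexus markers lay between 5.75 and 7.79 in sleep-deprived animals and between 5.82 and 7.44 in undisturbed animals. The 3 highest sleep-deprived animals, replicates 3, 5 and 7, hold both low and high levels of the members. All 8 of these markers had positive differences (median 0.29), and none passed the test. The excess of the 3' over the 5' signal of control transcripts averaged 0.255 ± 0.068 in sleep-deprived animals and 0.248 ± 0.028 in undisturbed animals (SD, n = 8 and 9), with sleep-deprived replicate 5 standing apart at 0.417. With the choroid plexus mean as a covariate 6 members were called, and with the control signal also 6; in both, Sgk1 entered (adjusted p = 0.032 and 0.048) and Cdkn1a dropped out (adjusted p = 0.086 and 0.058). Over all genes 533 were called with the choroid plexus mean and 692 with the control signal, against 723 with neither. Their part in the spread between animals was not tested. All 8 hippocampal neuron markers were measured, at mean log2 levels from 7.38 for Prox1 to 12.6 for Camk2a. Markers of hippocampal neurons, astrocytes and oligodendrocytes did not pass the test in any case.

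**Figure D1:**
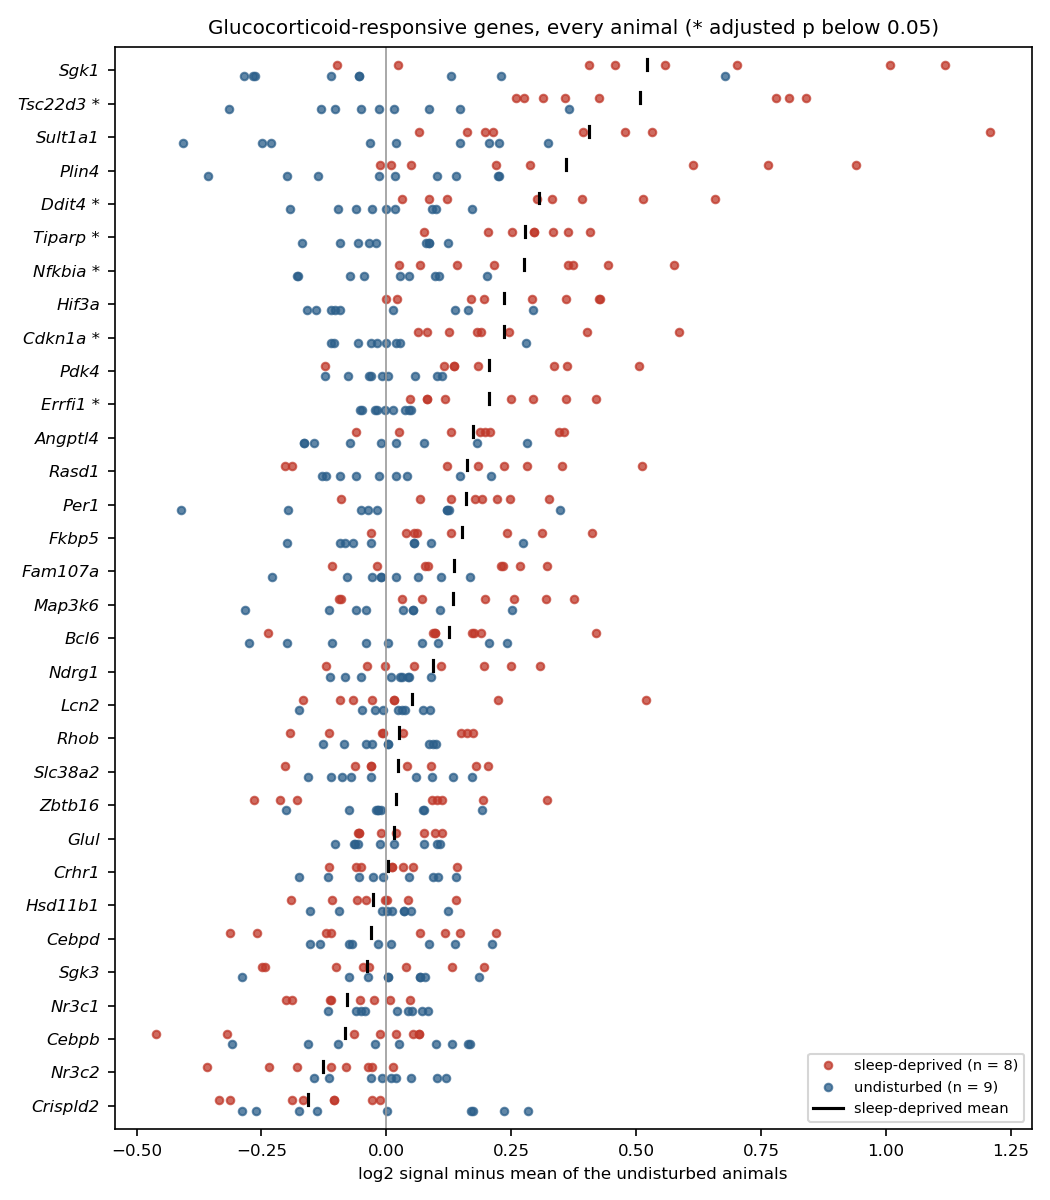
Each row is 1 of the 32 measured members, each point 1 animal (red, sleep-deprived, n = 8, drawn above blue, undisturbed, n = 9), the horizontal axis is the log2 signal minus the undisturbed mean, the black tick is the sleep-deprived mean and an asterisk marks an adjusted p below 0.05. The means run from 0.52 for Sgk1 to -0.16 for Crispld2, and the points of the groups overlap in every row.

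To show where the receptor's element lies near these genes, the annotated promoter windows were read from the RefSeq promoter table of build GRCm38.p6. Each window runs from 250 bases before to 50 bases after a transcript start, and 26 of the 33 members have 39 windows. The palindrome is made of AGAACA, 3 bases of any kind and TGTTCT. It was found in 1 of these windows, which is 1 of the 6 windows of Sgk1, and in 3 of all 32851 windows (0.00913%). The looser form, made of G, any base, ACA, 3 bases of any kind, TGT, any base and C, which overlaps the palindrome in Sgk1, was found in 4 member windows (10.3%) and in 0.475% of all. Of the 4, a pair of Fam107a windows overlap and hold the same match, so these are 3 sites in 3 genes. A single arm of the palindrome, AGAACA, searched like the others on both strands and present in the palindrome itself, was found in 8 windows of 5 members (20.5% of windows) and in 19% of all. In that Sgk1 window the palindrome began 189 bases before the start. In Map3k6 the looser form began 181 bases before, and in a Fam107a window 118 bases before. These 3 windows are shown for the element. Of the 3 windows of Tsc22d3, the 1 with a match is shown for a single arm alone, 185 bases before its start. Fkbp5 is shown for a target gene with no match in its window. Capitals mark the matches. A match describes letters only, and a window without one says nothing of elements elsewhere in the gene.
Sgk1, chr10:21993640-21993939, plus strand: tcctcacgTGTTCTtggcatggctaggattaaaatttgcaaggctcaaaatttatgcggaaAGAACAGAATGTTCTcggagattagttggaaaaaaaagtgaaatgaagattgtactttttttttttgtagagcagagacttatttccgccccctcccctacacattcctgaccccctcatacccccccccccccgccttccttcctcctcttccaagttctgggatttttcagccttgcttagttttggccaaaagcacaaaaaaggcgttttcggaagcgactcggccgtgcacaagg
Map3k6, chr4:133240568-133240867, plus strand: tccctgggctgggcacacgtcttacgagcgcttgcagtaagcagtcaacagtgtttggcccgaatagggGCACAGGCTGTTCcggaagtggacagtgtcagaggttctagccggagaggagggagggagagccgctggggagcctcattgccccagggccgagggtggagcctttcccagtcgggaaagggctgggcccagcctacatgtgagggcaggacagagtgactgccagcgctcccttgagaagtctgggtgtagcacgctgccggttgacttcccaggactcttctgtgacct
Fam107a, chr14:8309730-8310029, minus strand: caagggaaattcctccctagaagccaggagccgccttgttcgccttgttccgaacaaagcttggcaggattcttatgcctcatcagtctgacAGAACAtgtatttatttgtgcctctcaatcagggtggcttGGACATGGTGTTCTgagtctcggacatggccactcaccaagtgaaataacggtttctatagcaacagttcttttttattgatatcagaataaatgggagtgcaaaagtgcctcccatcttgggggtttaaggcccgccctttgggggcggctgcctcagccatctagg
Tsc22d3, chrX:140600473-140600772, minus strand: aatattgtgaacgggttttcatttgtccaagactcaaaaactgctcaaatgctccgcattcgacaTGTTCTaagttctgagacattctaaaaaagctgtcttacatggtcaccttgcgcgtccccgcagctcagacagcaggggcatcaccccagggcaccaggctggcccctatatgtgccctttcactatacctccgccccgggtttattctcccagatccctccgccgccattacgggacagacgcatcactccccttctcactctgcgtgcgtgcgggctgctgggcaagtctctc
Fkbp5, chr17:28486100-28486399, minus strand: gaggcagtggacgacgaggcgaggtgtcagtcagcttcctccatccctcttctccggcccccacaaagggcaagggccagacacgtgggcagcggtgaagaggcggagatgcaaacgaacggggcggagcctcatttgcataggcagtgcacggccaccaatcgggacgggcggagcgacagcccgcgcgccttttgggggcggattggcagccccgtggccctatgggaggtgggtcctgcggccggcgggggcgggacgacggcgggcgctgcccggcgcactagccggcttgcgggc

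Among the transcriptional brakes of inflammation, Tsc22d3 and Nfkbia rose. Tsc22d3, on chromosome X, encodes the glucocorticoid-induced leucine zipper, which binds and restrains inflammatory transcription factors. Its log2 level was 10.10 at the lowest, 10.23 at the median and 10.68 at the highest in sleep-deprived animals, and 9.53, 9.83 and 10.20 in undisturbed animals. Replicates 1, 4 and 7 of the sleep-deprived animals lay above 10.6 and the other 5 overlapped the undisturbed range or sat just above it. The difference was 0.51 (SE 0.094), 1.42-fold (limma, adjusted p = 0.0033), and the call held without each of the 17 animals in turn. Of its other 3 probe sets 1 rose by 0.48 (limma over all probe sets, adjusted p = 0.0096). The dimmer pair, with mean log2 levels of 7.94 and 4.26, were both at 0.16 and did not pass the same test (adjusted p = 0.22 and 0.36). Relative to the brightest probe set they were at -0.34 and -0.35 (limma over all genes' further probe sets, adjusted p = 0.066 and 0.21). With the mean of all 4 the difference was 0.33, and the call held. Nfkbia, on chromosome 12, encodes the inhibitor that keeps NF-kB in the cytoplasm. Its level was 10.96, 11.23 and 11.51 in sleep-deprived animals and 10.76, 10.96 and 11.14 in undisturbed animals. The difference was 0.28 (SE 0.072, 1.21-fold, adjusted p = 0.032), with 5 of 8 sleep-deprived animals above every undisturbed one. Its 5 probe sets ran from 0.21 to 0.34, all positive, and none passed when adjusted over all probe sets (smallest adjusted p = 0.054). The Nfkbia call was lost in 8 of 17 fits with 1 animal left out.

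Of the genes that check growth and metabolism, Ddit4, Errfi1 and Cdkn1a rose. Ddit4, on chromosome 10, encodes an inhibitor of the growth kinase complex mTORC1. It measured 9.88, 10.16 and 10.50 (lowest, median, highest) in sleep-deprived animals and 9.65, 9.84 and 10.02 in undisturbed animals, a difference of 0.30 (SE 0.074, 1.24-fold, adjusted p = 0.023). Its call held without each animal, and it was lost with an exact rank-sum test (adjusted p = 0.074). Errfi1, on chromosome 4, encodes an inhibitor of the epidermal growth factor receptor. It measured 9.62, 9.76 and 9.99 in sleep-deprived animals and 9.52, 9.57 and 9.62 in undisturbed animals, with 7 of 8 sleep-deprived animals above the undisturbed range. The difference was 0.21 (SE 0.051, adjusted p = 0.024, and 0.054 without sleep-deprived replicate 7). The dimmer probe set of Errfi1 was at 0.16 and did not pass (limma over all probe sets, adjusted p = 0.18). Cdkn1a, on chromosome 17, encodes the cell cycle inhibitor p21. It measured 7.75, 7.87 and 8.27 in sleep-deprived animals and 7.57, 7.67 and 7.96 in undisturbed animals, a difference of 0.23 (SE 0.066, adjusted p = 0.048). Its call was kept in 3 of 17 fits with 1 animal left out, and adjusted p reached 0.088. In limma over all probe sets its adjusted p was 0.077, and its dimmer probe set, at 0.11, did not pass (adjusted p = 0.49). Tiparp, on chromosome 3, encodes an enzyme that attaches single ADP-ribose units to proteins. It measured 8.65, 8.87 and 8.98 in sleep-deprived animals and 8.41, 8.56 and 8.70 in undisturbed animals, a difference of 0.28 (SE 0.050, 1.21-fold, adjusted p = 0.0028). The call was lost when the most variable of its probe sets stood for the gene (0.22, adjusted p = 0.065), and its other 2 probe sets did not pass when adjusted over all probe sets (adjusted p = 0.078 and 0.060). Its sleep-deprived animals had the narrowest range of these 6 genes, and 7 of them lay above every undisturbed animal.

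**Figure D2:**
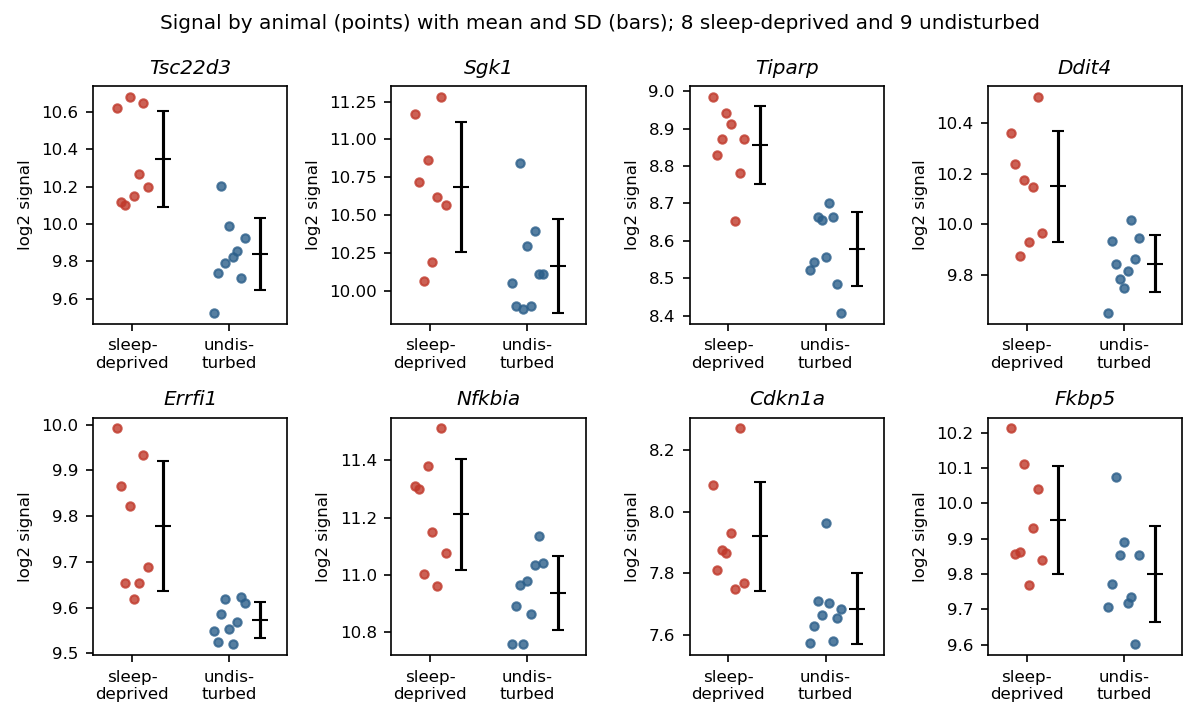
Log2 signal of the 6 called members and of Sgk1 and Fkbp5, each point 1 animal, sleep-deprived (n = 8) left of undisturbed (n = 9), with bars for the mean and SD; the vertical axes differ between genes and do not start at 0. For Errfi1 and Tiparp 7 of 8 sleep-deprived animals lie above every undisturbed animal, and for Sgk1 3 of 8.

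Sgk1 and Fkbp5, both widely used as markers of the hormone's action, did not pass. Sgk1, a kinase gene whose product regulates ion channels and transporters, had the largest member difference, 0.52 (SE 0.15, 1.44-fold, adjusted p = 0.054). It measured 10.07, 10.67 and 11.28 in sleep-deprived animals and 9.88, 10.11 and 10.84 in undisturbed animals, so the groups overlapped widely. Replicate 3 of the undisturbed animals was the highest of its group for Sgk1 (10.84), Tsc22d3 (10.20) and Fkbp5 (10.07); without it the adjusted p of Sgk1 was 0.019, and without sleep-deprived replicate 7 it was 0.11. Fkbp5, a receptor co-chaperone gene in a negative feedback on the receptor, measured 9.77, 9.90 and 10.21 in sleep-deprived animals and 9.60, 9.77 and 10.07 in undisturbed animals. The difference was 0.15 (95% confidence interval 0.017 to 0.29, adjusted p = 0.21), and its other 2 probe sets were at 0.13 and 0.063.

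The other metabolic members had positive differences that did not pass. Sult1a1, a sulfotransferase gene, measured 7.91, 8.15 and 9.06 in sleep-deprived animals and 7.44, 7.87 and 8.17 in undisturbed animals (difference 0.41, adjusted p = 0.075). Plin4, a lipid droplet protein gene, measured 5.59, 5.85 and 6.54 in sleep-deprived animals and 5.24, 5.62 and 5.82 in undisturbed animals (difference 0.36, adjusted p = 0.099). Both groups overlapped, and for each gene 4 of 8 sleep-deprived animals lay above every undisturbed animal. Pdk4, which inhibits pyruvate dehydrogenase, measured 6.85, 7.13 and 7.48 in sleep-deprived animals and 6.85, 6.96 and 7.08 in undisturbed animals (difference 0.21, adjusted p = 0.076). The lowest values of the 2 groups were alike, and 7 of 8 sleep-deprived animals exceeded the undisturbed range. Angptl4, an inhibitor of lipoprotein lipase, was at 0.17 (adjusted p = 0.16). The amino acid transporter gene Slc38a2 was at 0.023 through its brightest probe set. Its dimmer ones were at 0.15 and 0.19, and neither passed (limma over all probe sets, adjusted p = 0.14 and 0.076). Glul, the glutamine synthetase gene of astrocytes, was at 0.016 (95% confidence interval -0.073 to 0.10) through its brightest probe set, while a dimmer one rose by 0.20 (limma over all probe sets, adjusted p = 0.040); the difference between the 2 did not pass (adjusted p = 0.14).

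Of the transcription factor genes, Hif3a, a relative of the hypoxia factors, was at 0.24 (adjusted p = 0.070), the clock gene Per1 at 0.16 (adjusted p = 0.28) and the repressor gene Bcl6 at 0.13. Zbtb16, a zinc finger factor gene, was at 0.020, Cebpd at -0.032 and Cebpb at -0.082. Signalling genes Rasd1, Map3k6, Ndrg1, Rhob and Sgk3 lay at 0.16, 0.13, 0.094, 0.024 and -0.039, and none passed. The dimmer probe sets of Sgk3 were at 0.085 and 0.17, and neither passed (limma over all probe sets, adjusted p = 0.35 and 0.11). Fam107a, which encodes an actin-binding protein, was at 0.14 (adjusted p = 0.23) through its brightest probe set, and a dimmer one rose by 0.23 (limma over all probe sets, adjusted p = 0.044). The secreted protein genes Lcn2 and Crispld2 were at 0.052 and -0.16 (adjusted p = 0.74 and 0.29). Lcn2 was dim, with a mean log2 level of 4.01, at the 7.2 percentile of all genes. Of 43 further probe sets of the members, 36 had the sign of their gene's value. Over all 75 probe sets of the members 60 differences were positive and 7 were higher by limma over all probe sets, in which 1.81% of the array's probe sets passed and 0.584% were higher.

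**Figure D3:**
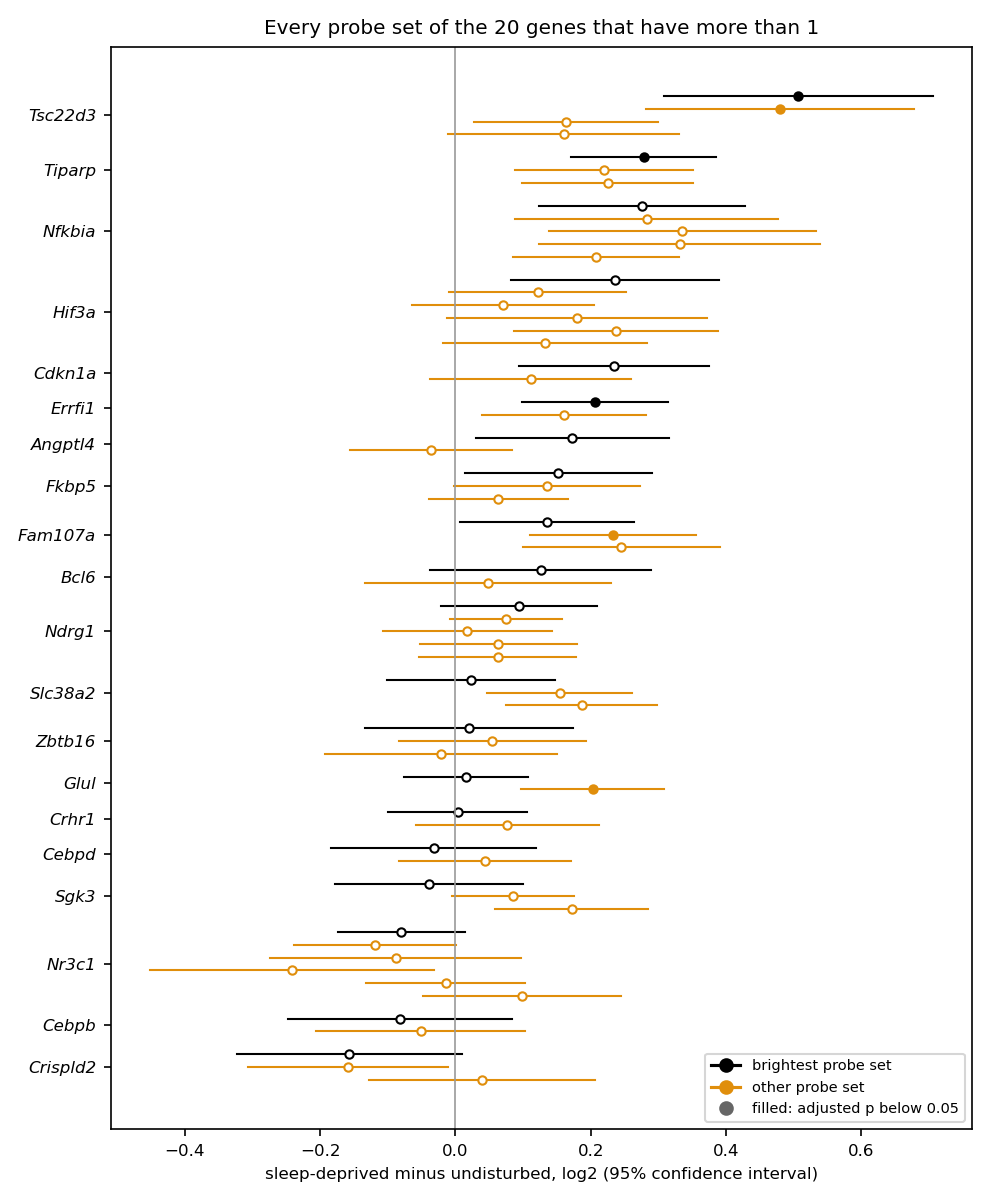
Log2 difference, sleep-deprived minus undisturbed, of every probe set of the 20 members with more than 1, with 95% confidence intervals; the brightest probe set is black, the others orange, and filled points passed the test over all probe sets. The 2 brighter Tsc22d3 probe sets are filled, and so are the dimmer probe sets of Glul and Fam107a named above.

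The receptors and the enzyme that supplies their ligand showed no call. Nr3c1 was at -0.080 (95% confidence interval -0.17 to 0.011, adjusted p = 0.34), with 10.14, 10.26 and 10.39 in sleep-deprived animals and 10.22, 10.36 and 10.42 in undisturbed animals, and its 6 probe sets ran from -0.24 to 0.098. Nr3c2 was at -0.13 (95% confidence interval -0.24 to -0.019, adjusted p = 0.19). Hsd11b1, which regenerates active hormone inside cells, was at -0.027, and Crhr1, a receptor for the hypothalamic releasing hormone, at 0.0031. Of 16 measured genes of the receptor machinery and stress axis, such as chaperones and coregulators, none rose and none fell (0 also at an unadjusted p under 0.05, limma; median 0.023). Over all genes 3.97% were called and 18.6% had an unadjusted p under 0.05, so a count of 0 calls among 16 is near that background.

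Of 26 other measured targets, from a list drawn up with earlier results of these data known, 5 rose (19.2%, beside 1.25% of all genes) and none fell, and 22 were positive (median 0.12, beside 0.0016 over all genes). Plekhf1, an endosomal protein gene, measured 7.60, 7.69 and 8.04 in sleep-deprived animals and 7.10, 7.38 and 7.597 in undisturbed animals, and was the 1 gene of this list whose groups did not overlap, as in 0.176% of all genes (difference 0.38, adjusted p = 0.0055). Gjb6, an astrocyte gap junction gene, was higher by 0.36 (adjusted p = 0.0082), Mfsd2a, a lipid transporter gene of brain vessels, by 0.31 (adjusted p = 0.034), the phagocytic receptor gene Mertk by 0.28 (adjusted p = 0.015) and the phosphatase gene Dusp1 by 0.27 (adjusted p = 0.014). The Mfsd2a call was lost in 8 of 17 fits with 1 animal left out (adjusted p up to 0.067), with the choroid plexus mean as a covariate (adjusted p = 0.053) and with an exact rank-sum test (adjusted p = 0.13), while the calls of the other 4 held in each of these. Ptgs2, an inducible cyclooxygenase gene repressed by glucocorticoids in many cells, was at -0.29 (adjusted p = 0.098; 0.029 with the mean of all its probe sets). Klf9 and Mt1, both induced by the hormone, were at -0.0033 and 0.013.

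The spread between animals was wider in sleep-deprived than in undisturbed animals for 27 of 32 members, beside 60.7% of all genes. The median member SD was 0.16 in sleep-deprived and 0.12 in undisturbed animals, and the median over all genes was 0.117 in sleep-deprived and 0.106 in undisturbed animals. No single member passed the test of unequal spread (limma on absolute deviations, 1 gene called in all, 0.0055%), and 8 members had an unadjusted p under 0.05, beside 7.4% of all genes; 7 of these were wider in sleep-deprived animals and Crispld2 was narrower (SD 0.12 in sleep-deprived and 0.22 in undisturbed animals). Errfi1 had an SD of 0.14 in sleep-deprived and 0.039 in undisturbed animals (adjusted p = 0.33). The Sgk1 SD of 0.43 in sleep-deprived animals stood at the 99.8 percentile of all genes, and it was also wide in undisturbed animals, at 0.31. The mean deviation of the 6 called members from the undisturbed mean was 0.48, 0.40 and 0.53 in sleep-deprived replicates 1, 4 and 7, and between 0.15 and 0.28 in the other 5.

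**Figure D4:**
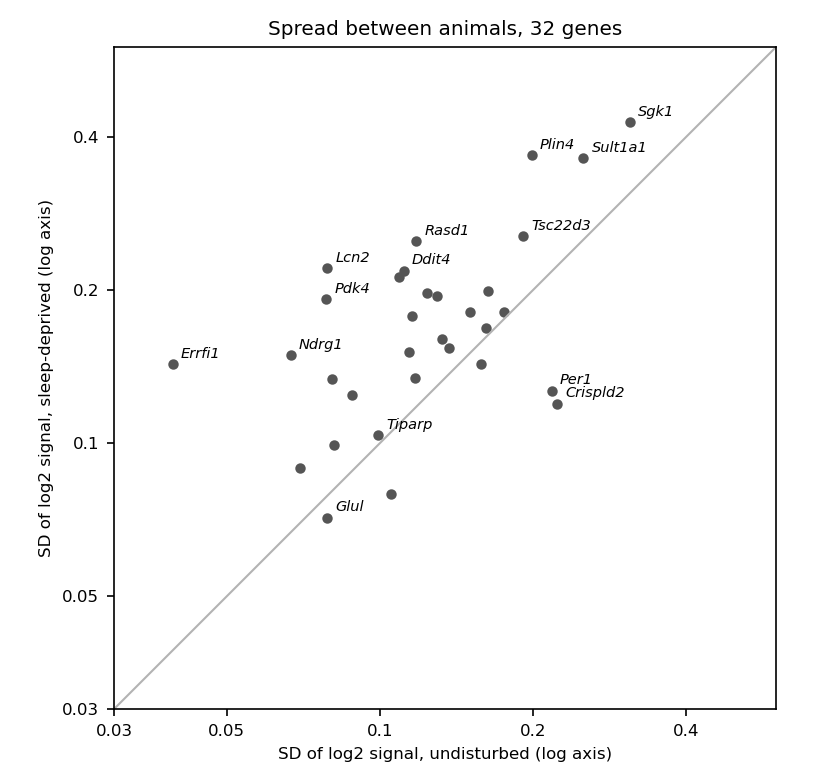
SD of the log2 signal between animals, in sleep-deprived animals on the vertical axis and in undisturbed animals on the horizontal axis (both log axes), each point 1 of the 32 members. Of these, 27 lie above the grey line of equal spread, and Sgk1 has the widest SD in both groups.

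Within the sleep-deprived group the levels of the members correlated from animal to animal. Over all 496 pairs the median Pearson r was 0.34 in sleep-deprived and 0.058 in undisturbed animals, and 74.2% and 54.4% of pairs were positive. The mean r of these pairs was 0.27 and 0.039, beside a mean over all gene pairs of 0.017 and 0.010. The mean over all gene pairs takes in dim genes and genes of small spread. Genes matched to the members in level or spread were not compared. The share of positive pairs over all genes was not determined. Over the 15 pairs of the 6 called members the median r was 0.69 in sleep-deprived and 0.16 in undisturbed animals, with a range of -0.12 to 0.89 and of -0.37 to 0.60. Tiparp had a mean r of 0.079 to the other members in sleep-deprived animals. A set of 10 hormone targets was chosen by name, with earlier results of these data known, and without Tiparp; 9 of the 10 are the members with the highest mean r in sleep-deprived animals, so the set is no independent support. Over its 45 pairs (Fkbp5, Sgk1, Tsc22d3, Zbtb16, Cdkn1a, Errfi1, Plin4, Pdk4, Ddit4 and Nfkbia) the median r was 0.78 in sleep-deprived and 0.11 in undisturbed animals. It lay between 0.72 and 0.82 when each sleep-deprived animal was left out, and between 0.063 and 0.16 when each undisturbed animal was. By Pearson r, 24 pairs passed an exact permutation test adjusted over the 45 in sleep-deprived animals and 0 in undisturbed animals (3 at an unadjusted p under 0.05), and by Spearman rho 2 and 0. Whether the groups differ in covariation was not tested. The points share their arrays and normalization. Sgk1 and Ddit4 had r = 0.95 and rho = 0.98 in the 8 sleep-deprived animals (exact permutation p = 0.00042 and 0.00040, adjusted p = 0.019 and 0.0089), and r = 0.90 without the 2 animals farthest from the median. Their r was 0.15 in undisturbed animals. Fkbp5 and Tsc22d3 had r = 0.91 in sleep-deprived animals (exact permutation p = 0.0056, adjusted p = 0.042; rho = 0.71, p = 0.058, adjusted p = 0.12), and 0.83 in undisturbed animals (exact permutation p = 0.0081, adjusted p = 0.37). The relation of Cdkn1a and Plin4 (r = 0.82) rested on 2 animals, without which r was 0.21. Nr3c1 ran the other way, with a mean r of -0.39 to the other members in sleep-deprived and -0.18 in undisturbed animals.

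**Figure D5:**
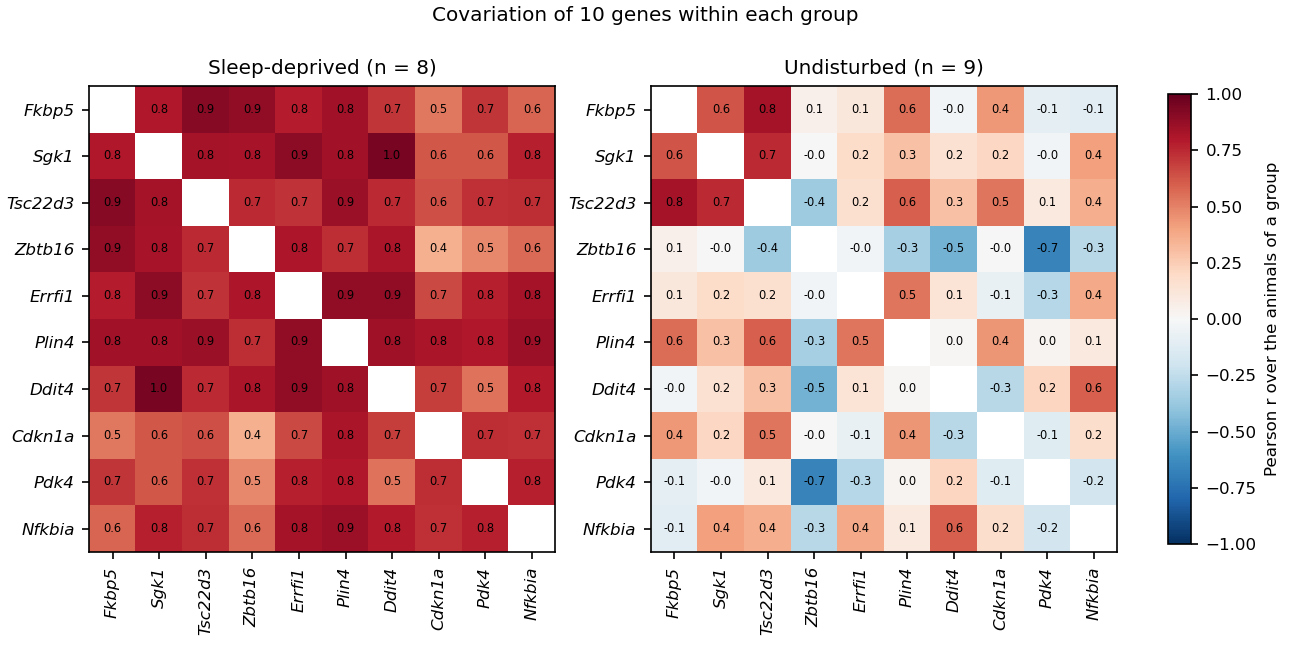
Pearson r between the 10 hormone targets over the animals of a group, sleep-deprived (n = 8) left and undisturbed (n = 9) right; colour and the rounded number in each cell give r. All 45 pairs are positive in sleep-deprived animals and 28 in undisturbed animals.

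The mean of 8 endothelial markers correlated negatively with these targets in sleep-deprived animals: all 10 r were negative (median -0.79), and 2 of 50 marker relations passed the exact permutation test, those of Sgk1 (r = -0.89, adjusted p = 0.041; rho = -0.98, adjusted p = 0.020) and Zbtb16 (r = -0.91, adjusted p = 0.041; rho = -0.88, adjusted p = 0.072). Without the 2 animals farthest from the median these r were -0.87 and -0.87. In undisturbed animals the median r was -0.15 and none passed; there Sgk1 had r = -0.74, and -0.23 without 2 animals. The endothelial mean lay between 8.02 and 8.20 in sleep-deprived and between 7.92 and 8.28 in undisturbed animals. Of its 8 markers 6 had positive differences (median 0.015), and only Tek was called, lower by 0.26 (limma, adjusted p = 0.040). Mural markers had a median r of -0.47 to the targets in sleep-deprived animals and none passed. Without the 2 animals farthest from the median the mural r lay between -0.32 and 0.23. Of these 8 markers 4 had positive and 4 negative differences (median -0.010), and only Pdgfrb was called, lower by 0.37 (limma, adjusted p = 0.0049). In the same test 2.73% of all genes were lower. Choroid plexus markers had r between -0.45 and 0.42 to the targets in sleep-deprived animals, none with a p under 0.05. Without the 2 animals farthest from the median these r lay between -0.79 (Sgk1) and 0.055 (Cdkn1a), with no p determined. The 50 relations of each group also took in oligodendrocyte and astrocyte markers, none with a p under 0.05 in sleep-deprived animals (exact permutation). In undisturbed animals Pdk4 and astrocyte markers had the smallest adjusted p, 0.079 by the same test (r = 0.91, and 0.76 without 2 animals). The part of these marker lists in the covariation was not tested. The 10 targets were chosen with earlier results of these data known. They correlated with each other over the same animals, so their r to a marker list are not separate observations. The marker relations were added after the data were seen.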

How the data were processed

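The authors deposited 1 log2 value per probe set and array; RMA and affy are named per the submitters' processing notes, and the sources used here give neither versions nor the order of steps. The log base was inferred from values between 2.90 and 14.8. RMA equalises the arrays' distributions, which hides any shift common to most genes. Of 45101 probe sets 64 controls were left out; 34945 carried 1 symbol in the platform annotation, 932 several and 9160 none. Entrez identifiers of 34741 were found in a RefSeq table (GRCm38.p6), with 0 symbols changed. Groups came from the sample labels. limma 3.58.1 under R 4.3.3 (lmFit, eBayes) was fitted over 18193 genes and, separately, over 45037 probe sets. Every adjusted p of a gene's difference is from limma, except where the exact rank-sum test is named. The spread was tested by limma on absolute deviations from the group mean. The fits were tested on simulated data. All members are named; of the other lists, called genes and 3 further targets chosen after their values were seen (Ptgs2, Klf9, Mt1). The members and lists were chosen with earlier results of these data known. No batch or scan date was used. Alternatives were filters, normalizations, probe set rules, variance models, array weights, a rank-sum test, covariates, a replicate block and each animal left out; the leave-one-out and quantile forms of the target covariation and the marker relations were added after seeing the data.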

Additional observations from a re-analysis of the deposited data

Results flagged for a closer look

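In 2 of 64 groups tested, each the values of 1 member in 1 group of animals, the highest animal stood apart by the gap to its neighbour over the whole range; chance flags about 1 in 20. Sult1a1 in sleep-deprived replicate 7 measured 9.06, with the next animal at 8.38 (ratio 0.591). Cdkn1a in undisturbed replicate 5 measured 7.96, with the next animal at 7.71 (ratio 0.649); without it the limma adjusted p of Cdkn1a was 0.017.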

How the results depend on the processing

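The genes called in all were 723, between 533 and 969 over 11 alternatives, and between 481 (without undisturbed replicate 4) and 817 with 1 animal left out. Members called higher were between 3 and 8, with 3 (Errfi1, Tiparp and Tsc22d3) under an exact rank-sum test and 8 with a mean signal of at least 6, and between 3 and 7 with 1 animal left out. No member was called lower in any of these. Other targets and machinery genes called higher were between 4 and 7. Those called lower were 0, and 1, Ptgs2, with the mean of all probe sets; with 1 animal left out the count was 0 to 1. Genes called for unequal spread were 1, and 0 with the filter on signal or with deviations from the group median, and 0 to 3 with 1 animal left out (1347 at an unadjusted p under 0.05). Sgk1 passed in 5 of 11 alternatives and 3 of 17 left-out fits. The replicate block, which pairs animals of the same number, called 913 genes and 5 members, without Cdkn1a. The sample labels do not say whether the numbers pair the animals. Deviations of same-numbered animals had correlations of -0.159 to 0.393, and 1 of 8 correlated best with its own number. Such correlations cannot settle whether same-numbered animals were processed together. Arrays have no depth, and dim probe sets show compressed differences.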

Other observations

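Among 12010 genes with a mean signal of at least 6, those most like Tsc22d3 over the 8 sleep-deprived animals were Tbc1d4 (r = 0.97), Smim3, Samd14, Traf6 and Mertk (r = 0.94). Smim3 was the one of these with a high r in undisturbed animals as well, 0.86, while Tbc1d4 had -0.024. Those most like Sgk1 were Phka1 (0.98), Syndig1 (0.97), Ddit4, Syce2 and Lurap1l, with r in undisturbed animals of 0.094 for Phka1 and 0.75 for Lurap1l. Those most like Fkbp5 were Ruvbl1 (0.99), Clcn2, Hs3st4, Paxip1 and Denn2b (0.96). These are the highest of 12010 values each, given as a description with no test.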
